A study of Mus musculus with 20 samples.

Results

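Kupffer cells are the macrophages that live in the sinusoids of the liver, and 9 of the genes used to mark them and other macrophages are described here: Adgre1, Csf1r, Lyz2, Clec4f, Vsig4, Timd4, Marco, Cd163 and C1qa. They are the genes of a list of 10 that had a row carrying their symbol in the array annotation. Rows were taken by symbol, not by a measured value, but the list was chosen with earlier results of these data known. Each had 1 row among the 22206 transcript clusters of the table, of which 19572 carried a gene symbol. The tenth, Cd68, was not analysed here.

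The study measured liver RNA of 20 adult male C57BL/6NCr mice, an inbred strain, aged 4 to 5 months, on Affymetrix arrays with 1 array per mouse. The groups, of 5 mice each, differ in the ambient temperature of the mother during pregnancy, which was 10, 18, 23 or 30 °C. Wild-type dams had been held for 2 weeks at 10 or 18 °C, or for 3 weeks at 30 °C, before mating, and sires for 3 days at the same temperature, while breeding pairs at 23 °C, the usual animal house temperature, gave the control group. Mothers and young of all 4 groups were at 23 °C from birth, and the sons ate standard chow. The labels name no engineered allele. The labels name the mice by number but give no litter, dam or batch, so mice of a group may be littermates, and p-values measure the spread between these arrays. Each mouse is called by its group and its number, and the temperature always refers to the mother.

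As background, Kupffer cells settle in the liver before birth and largely maintain themselves there, facing the blood that arrives from the gut. They take up bacteria, complement-coated particles, aged red cells and dying cells through a set of surface receptors, and their survival depends on signals through the CSF1 receptor. When they are lost, monocytes from the blood can replace them and take on most, but not all, of their genes, with Timd4 among the slowest to return. The comparison asks whether their transcripts in the adult liver differ with the temperature of the mother during pregnancy.

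All values are the authors' log2 expression values, on which 1 unit is a doubling of signal. A value is compared here only with values of the same gene, because probe sets differ in brightness. The rows of olfactory receptor genes, which liver is not expected to use, gave a background level, the 95th percentile of their means, of 3.90. All 9 markers lay above it in 20 of 20 arrays. Marco was the weakest by this measure, exceeding the highest mean of the negative control rows in 11 of the 20 arrays, whereas each of the other 8 exceeded it in 20. Hepatocyte transcripts identified the tissue, with Alb, the gene of serum albumin, at 19.8 to 19.9 in every array. Markers of other leukocytes were mostly under this level by their means. Above it lay 5 of 14 measured genes of monocytes and recruited macrophages, the highest being Cd9 at 8.30, Clec12a at 6.84 and Plac8 at 6.43, while Ly6c2 and Ccr2 lay under it. Of neutrophil markers 1 of 11 lay above it (S100a9 at 4.21), of B cell markers 2 of 7 (Fcer2a at 6.61 and Blk at 3.99), of T and NK cell markers 3 of 10 (Cd4 at 6.19, Cd2 at 4.54 and Cd3d at 3.95) and of dendritic cell markers 1 of 8 (Siglech at 4.41). Cd5l, a protein secreted by Kupffer cells, averaged 9.81. In a sample of whole liver, fewer cells of a type and less RNA per cell cannot be told apart. Single arrays correlated at 0.987 to 0.993 over all clusters and no pair held identical values.

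None of the 9 markers differed between maternal temperatures at a limma p-value adjusted over all 22206 clusters of under 0.05, in any of the 6 pairwise comparisons, in the test over the 4 groups or in the slope on temperature. The adjusted threshold was passed by 0.00901% of all clusters between 10 and 23 °C offspring and by 0% in each of the other tests. The direction of the differences was nonetheless uneven. Between 10 and 23 °C offspring 8 of the 9 markers were higher in the first group, all but Marco, while 50.4% of all clusters were, and the median difference of the markers was 0.34, against 0.0024 for all clusters. Between 18 and 23 °C offspring 8 of 9 were again higher, where 49.6% of all clusters were, with a median of 0.27, against -0.0020. Between 30 and 23 °C offspring 4 of 9 were higher, where 48.7% of all clusters were, and the median was -0.055, against -0.0055. Against the 30 °C group 8 of 9 were higher both at 10 °C, where 51.1% of all clusters were, and at 18 °C, where 50.6% were, and between 10 and 18 °C 6 of 9 were higher at 10 °C, where 50.1% of all clusters were. These comparisons share arrays, and the markers are not independent of each other.

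At an unadjusted limma p under 0.05, which 11.6% of all clusters reached between 10 and 23 °C offspring, 2 of the 9 markers did, Adgre1 and Lyz2. Between 18 and 23 °C offspring it was 3 of 9, Adgre1, Marco and Cd163, where 9.25% of all clusters did, and between 30 and 23 °C offspring 0 of 9, where 4.84% did. In the remaining pairs the counts were 2 of 9 for 10 against 30 °C (Vsig4 and C1qa, 6.76% of all clusters), 1 of 9 for 18 against 30 °C (Marco, 8.21%) and 1 of 9 for 10 against 18 °C (Marco, 8.1%). Over the 4 groups Adgre1 alone reached it, 1 of 9, where 9.86% of all clusters did. No marker separated any 2 groups without overlap of the arrays, a pattern shown by 2.45% of all clusters between 10 and 23 °C offspring, 1.81% between 18 and 23 °C, 0.752% between 30 and 23 °C, 0.982% between 10 and 30 °C, 1.41% between 18 and 30 °C and 1.42% between 10 and 18 °C.

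**Figure D1:**
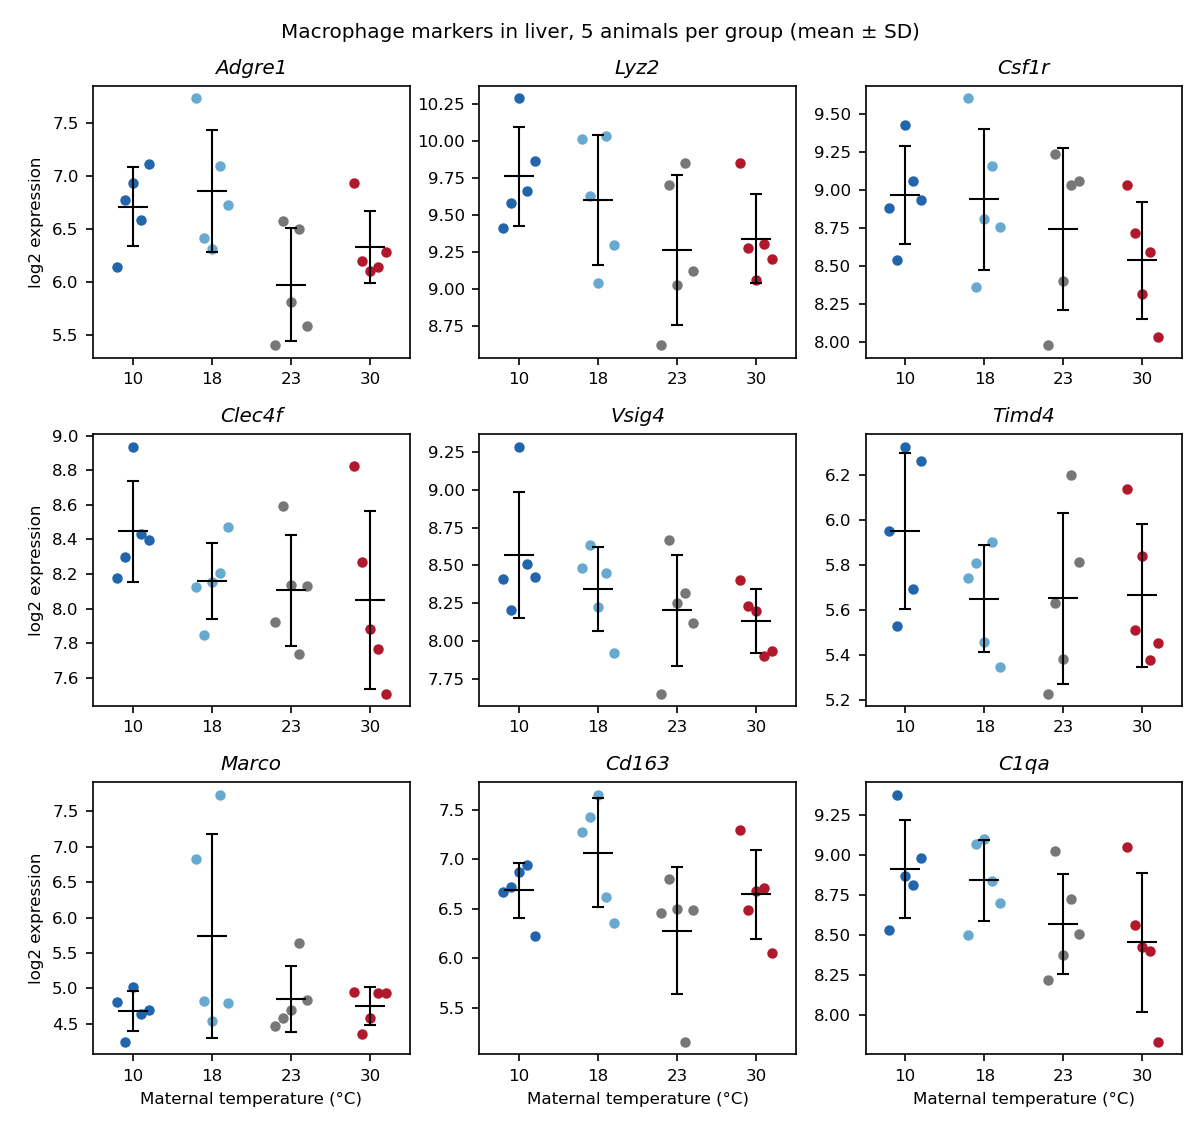
Log2 expression (vertical axes, a separate range for each gene) of the 9 markers in each of 20 livers by maternal temperature in °C (horizontal axes), with points for arrays, long bars for group means and error bars for 1 SD (n = 5). The groups overlap for every gene, and 2 of the 18 °C arrays stand apart for Marco, at 6.82 and 7.74.

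The first genes to describe are those of the macrophage lineage as a whole. Adgre1 encodes an adhesion-type receptor on the surface of macrophages, by which they have long been recognised in mouse tissue. Its log2 values were 6.14, 6.59, 6.78, 6.93 and 7.12 in the 10 °C arrays and 6.31, 6.42, 6.73, 7.10 and 7.74 in the 18 °C arrays. In the control group at 23 °C they were 5.40, 5.58, 5.82, 6.50 and 6.58, and in the 30 °C group 6.11, 6.15, 6.20, 6.29 and 6.93. The 23 °C arrays fell into 3 low and 2 higher animals, and the latter lay within the range of both cold groups. Group means (± SD, n = 5) were 6.71 ± 0.37 at 10 °C, 6.86 ± 0.58 at 18 °C, 5.98 ± 0.54 at 23 °C and 6.34 ± 0.34 at 30 °C. The 10 °C mean exceeded the control by 0.74 ± 0.27 (SE; 95% confidence interval 0.18 to 1.29), a 1.66-fold difference, with a limma p of 0.0116 and an adjusted p of 0.285. For 18 °C the excess was 0.88 ± 0.27 (0.33 to 1.44), 1.84-fold, with a limma p of 0.0032 and an adjusted p of 0.338. Without animals 1 and 5 of the 18 °C group, which stood apart for Marco, this difference was 0.51. The 30 °C group differed from the control by 0.36 ± 0.27, with an interval of -0.20 to 0.91, and by 0.21 without animal 4 of the 30 °C group or without animal 1 of the control group. The order of the means was thus 18, 10, 30 and 23 °C, and the intervals of the differences between neighbours in this order all held 0, with -0.70 to 0.41 for 10 minus 18 °C and -0.18 to 0.93 for 10 minus 30 °C.

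Csf1r encodes the receptor for CSF1 and IL-34, the growth factors that keep macrophages alive. Its group means were 8.97 ± 0.32 at 10 °C, 8.94 ± 0.47 at 18 °C, 8.74 ± 0.53 at 23 °C and 8.54 ± 0.38 at 30 °C. The lowest, median and highest arrays were 8.54, 8.93 and 9.43 at 10 °C, 8.36, 8.81 and 9.60 at 18 °C, 7.98, 9.03 and 9.24 at 23 °C, and 8.03, 8.59 and 9.03 at 30 °C, so that the ranges overlapped throughout. No neighbouring means differed beyond their spread, and the excess of 10 over 23 °C was 0.22 ± 0.25 (limma, adjusted p = 0.777). That excess was 0.034 without animal 1 of the 23 °C group, the lowest array for this gene.

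Lyz2 encodes the lysozyme of macrophages and other myeloid cells, an enzyme that cuts the cell walls of bacteria. The 10 °C arrays read 9.41, 9.58, 9.66, 9.86 and 10.29, and the 18 °C arrays 9.04, 9.29, 9.62, 10.01 and 10.03. Control arrays read 8.62, 9.03, 9.12, 9.70 and 9.85, and those at 30 °C 9.06, 9.20, 9.28, 9.30 and 9.85. As for Adgre1, 3 control animals lay below every 10 °C animal and the other 2 lay among them. The means were 9.76 ± 0.34, 9.60 ± 0.44, 9.26 ± 0.51 and 9.34 ± 0.30 in order of rising temperature. The difference between 10 and 23 °C was 0.50 ± 0.24 (0.0069 to 0.98), with an adjusted limma p of 0.422, and that between 18 and 23 °C 0.34 ± 0.24 (adjusted p = 0.705). The latter was 0.055 without animals 1 and 5 of the 18 °C group and 0.18 without animal 1 of the 23 °C group. Lyz1, a near-identical copy of Lyz2, had a row of its own that read 4.69 to 6.22. Whether probes of one bind the transcript of the other was not tested.

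**Figure D2:**
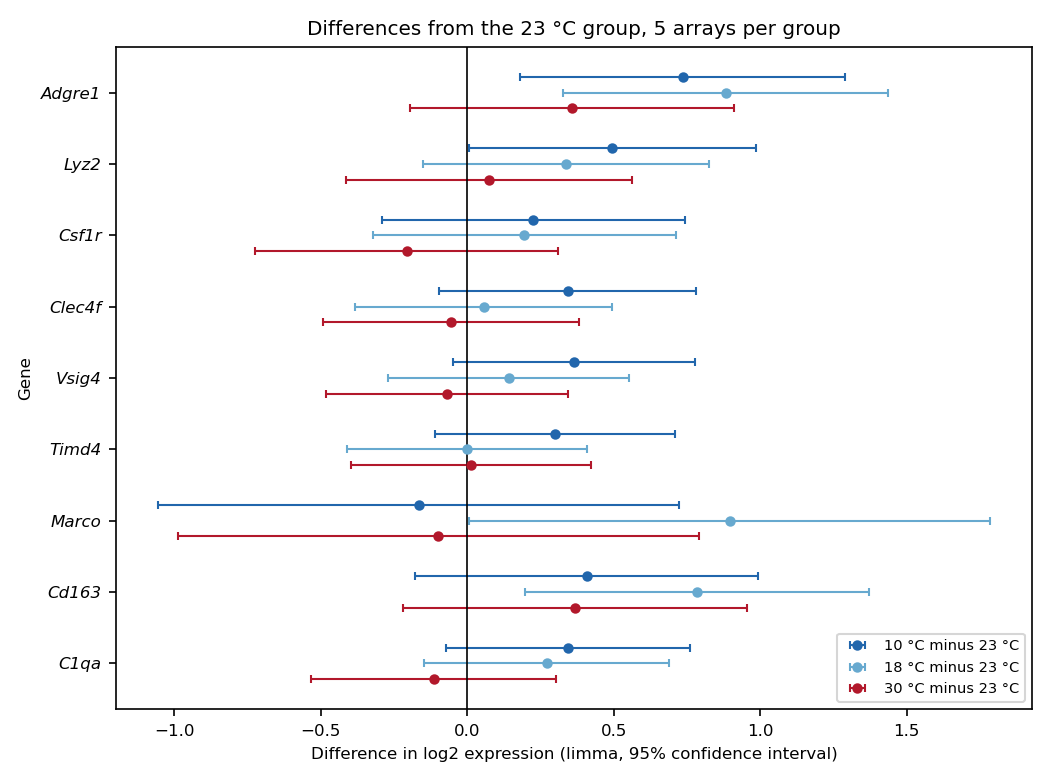
Differences in log2 expression from the 23 °C group (horizontal axis) for the 9 markers (vertical axis), with points for limma estimates and bars for 95% confidence intervals (5 arrays per group). For 10 °C the estimates lie above 0 for all but Marco, and the intervals for Adgre1 (0.18 to 1.29) and Lyz2 (0.0069 to 0.98) do not reach 0; no adjusted p is under 0.05.

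Next come the receptors that set Kupffer cells apart from other macrophages. Clec4f encodes a C-type lectin made by Kupffer cells in the mouse. Its means were 8.45 ± 0.29 at 10 °C, 8.16 ± 0.22 at 18 °C, 8.10 ± 0.32 at 23 °C and 8.05 ± 0.51 at 30 °C. The 10 °C arrays, from 8.17 to 8.94 with a median of 8.39, overlapped the control arrays, from 7.74 to 8.60 with a median of 8.13. The 18 °C arrays ran from 7.85 to 8.47 around a median of 8.15, and the 30 °C arrays from 7.51 to 8.83 around 7.88. The difference between 10 and 23 °C was 0.34 ± 0.21 (limma, adjusted p = 0.550), that between 18 and 23 °C 0.056 ± 0.21 and that between 30 and 23 °C -0.055 ± 0.21. With the mean of the arrays' background control rows as a covariate, the first was 0.10, and without animal 5 of the 10 °C group it was 0.22.

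Vsig4 encodes CRIg, a receptor with which Kupffer cells catch particles coated with complement C3. In the 10 °C group it read 8.21, 8.41, 8.43, 8.51 and 9.29, and in the 18 °C group 7.92, 8.23, 8.45, 8.48 and 8.63. Controls read 7.65, 8.12, 8.25, 8.32 and 8.67, and the 30 °C group 7.90, 7.93, 8.20, 8.23 and 8.40. The highest array, animal 5 of the 10 °C group, stood apart from the other 4 of its group. The means were 8.57 ± 0.42, 8.34 ± 0.28, 8.20 ± 0.37 and 8.13 ± 0.21 with rising temperature. The 10 °C mean exceeded the control by 0.37 ± 0.20 (-0.047 to 0.78; limma, adjusted p = 0.486), or by 0.19 without that animal and 0.23 without animal 1 of the control group. It exceeded the 30 °C mean by 0.43 ± 0.20 (0.022 to 0.85; limma, adjusted p = 0.725).

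Timd4 encodes TIM-4, a receptor for the phosphatidylserine that dying cells expose, and marks Kupffer cells long resident in the liver. Its means were 5.95 ± 0.35 at 10 °C, 5.65 ± 0.24 at 18 °C, 5.65 ± 0.38 at 23 °C and 5.66 ± 0.32 at 30 °C. The 10 °C arrays ran from 5.53 to 6.32 (median 5.95), those at 18 °C from 5.34 to 5.90 (5.74), those at 23 °C from 5.23 to 6.20 (5.63) and those at 30 °C from 5.38 to 6.14 (5.51). Every group thus held animals within the range of every other. The 10 °C mean lay above the control by 0.30 ± 0.20 (-0.11 to 0.71; limma, adjusted p = 0.583), or by 0.19 without animal 1 of the 23 °C group. The 18 and 30 °C means differed from it by -0.00075 and 0.013, with intervals of -0.41 to 0.41 and -0.40 to 0.42.

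Of the scavenger receptors, Marco, which binds bacteria and particles, was the marker with the widest spread. It read 4.25, 4.64, 4.69, 4.81 and 5.02 at 10 °C and 4.54, 4.80, 4.82, 6.82 and 7.74 at 18 °C. The controls read 4.47, 4.59, 4.70, 4.83 and 5.65, and the 30 °C arrays 4.36, 4.58, 4.93, 4.93 and 4.95. Animals 1 and 5 of the 18 °C group were higher than the remaining 18 mice, whose highest value, 5.65, belonged to animal 17 of the control group. The 18 °C mean was 5.74 ± 1.44, against 4.68 ± 0.28 at 10 °C, 4.85 ± 0.47 at 23 °C and 4.75 ± 0.27 at 30 °C. Its excess over the control of 0.90 ± 0.43 (limma, adjusted p = 0.538) was -0.13 (adjusted p = 0.897) without those 2 mice. In the same animals Adgre1 read 7.74 and 7.10, Csf1r 9.60 and 9.16 and Lyz2 10.01 and 10.03, the 2 highest of their group for each of these genes. For the remaining markers these animals were not the 2 highest of the group. C1qa read 8.50, the lowest of the group, and 8.84, Cd163 7.27 and 6.62 and Clec4f 8.13 and 8.20. Vsig4 read 8.48 and 8.45 and Timd4 5.74 and 5.90.

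Cd163, the receptor that clears haemoglobin bound to haptoglobin, was highest at 18 °C. Its values there were 6.36, 6.62, 7.27, 7.43 and 7.65, against 5.16, 6.46, 6.49, 6.50 and 6.80 in the controls. The 10 °C arrays read 6.23, 6.67, 6.73, 6.88 and 6.94, and the 30 °C arrays 6.05, 6.49, 6.69, 6.72 and 7.30. Animal 17 of the control group lay well under its group, and 3 of 5 mice at 18 °C lay above every control. The 18 °C mean of 7.07 ± 0.55 exceeded the control mean of 6.28 ± 0.64 by 0.79 ± 0.28 (0.20 to 1.37), 1.72-fold, with an adjusted limma p of 0.433. Without animal 17 the difference was 0.50, and with the background control rows as a covariate it was 0.45. The 10 °C mean of 6.69 ± 0.28 and the 30 °C mean of 6.65 ± 0.45 lay 0.41 ± 0.28 and 0.37 ± 0.28 above the control. For 10 °C the excess was 0.13 without animal 17 and 0.077 with the covariate, and for 30 °C it was 0.086 without animal 17 and 0.21 without animal 4 of the 30 °C group.

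C1qa encodes the A chain of C1q, the recognition protein of the classical complement pathway, which macrophages make. Its means were 8.92 ± 0.31 at 10 °C, 8.84 ± 0.25 at 18 °C, 8.57 ± 0.31 at 23 °C and 8.46 ± 0.43 at 30 °C. The 10 °C arrays lay between 8.54 and 9.38 (median 8.87), those at 18 °C between 8.50 and 9.10 (8.84), the controls between 8.22 and 9.02 (8.51) and those at 30 °C between 7.84 and 9.05 (8.43). All ranges overlapped. The 10 °C mean exceeded the control by 0.34 ± 0.20 (-0.073 to 0.76; limma, adjusted p = 0.523) and exceeded the 30 °C mean by 0.46 ± 0.20 (0.042 to 0.88; adjusted p = 0.719). The first of these was 0.12 once background rows entered as a covariate, and 0.23 without animal 4 of the 10 °C group.

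Fitted against temperature as a number, the expression of all 9 markers had a slope below 0, a fitted line that rises towards a colder mother, as had 51.1% of all clusters. The group means did not follow that line for every marker. Marco had its lowest mean at 10 °C (4.68) and Adgre1 at 23 °C (5.98). The median slope was -0.22 log2 units per 10 °C, against -0.0029 over all clusters. C1qa had a slope of -0.25 ± 0.095 (limma, adjusted p = 0.522), Vsig4 of -0.22 ± 0.093 (adjusted p = 0.560) and Lyz2 of -0.24 ± 0.11 (adjusted p = 0.601), and these 3 of 9 reached an unadjusted p under 0.05, as 8.15% of all clusters did. The Vsig4 slope was -0.14 without animal 5 of the 10 °C group, and the C1qa slope -0.14 with those background rows fitted too. For Marco the slope was -0.060 ± 0.23, and it was above 0, at 0.047, without animals 1 and 5 of the 18 °C group. For Cd163, at -0.11 ± 0.15, it was 0.11 once the level of the background rows was fitted too.

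The background rows, named as such by their identifiers among the control rows of the array, were not at 1 level in all groups. Their mean was 3.71 ± 0.02 at 10 °C and 3.71 ± 0.04 at 18 °C, against 3.65 ± 0.02 at 23 °C and 3.66 ± 0.06 at 30 °C. Within groups this level correlated over 20 arrays with Clec4f at r = 0.42, with C1qa at 0.41, with Cd163 at 0.40 and with Marco at -0.37, and with the other 5 markers at 0.14 to 0.21, given here as a description. Used as a covariate, it left Adgre1 at 0.59 above the control at 10 °C and at 0.74 at 18 °C.

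Variation between animals was shared by many of the markers. For each array the deviation of a marker from its mean over 20 arrays, which includes differences between groups, was averaged over the 9 genes. The highest arrays were animals 1 and 5 of the 18 °C group, at 0.55 and 0.52, and animal 5 of the 10 °C group, at 0.51, in which 9 of 9 markers lay above their own means. In the former 2 arrays 7 and 8 of 9 did, and their averages owe much to Marco alone. It read 6.82 and 7.74 there, against its mean of 5.005 over 20 arrays. Animal 4 followed from the 30 °C group at 0.35, with 8 of 9 above. The lowest was animal 1 of the control group, at -0.60, with 0 of 9 above and 8 of 9 among the 5 lowest arrays. It held the lowest value of all 20 for Adgre1, Csf1r, Lyz2, Vsig4 and Timd4. By group this mean ran from -0.042 to 0.51 at 10 °C, from -0.11 to 0.55 at 18 °C, from -0.60 to 0.16 at 23 °C and from -0.46 to 0.35 at 30 °C, so the groups overlapped.

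Correlations were computed over 20 arrays after removal of the group means, so that they describe mice of the same maternal temperature, for the 36 pairs of markers. The arrays were normalised together by the authors, so the values of a pair share that step. Of the 36 pairs, 30 had a positive Pearson r, with a median of 0.41 over all pairs, and 10 passed at a permutation p adjusted over the 36 of under 0.05, all of them positive. Lyz2 took part in 5 of these 10, Csf1r in 4, Vsig4 and Timd4 in 3 each, Adgre1 and Marco in 2 each and Clec4f in 1. Cd163 and C1qa took part in 0, and the median r of Cd163 with the other 8 markers was -0.0095.

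The closest pair was Adgre1 and Lyz2, with r = 0.85 and Spearman rho = 0.80 (permutation p = 7e-05, adjusted p = 0.0025; rho's p = 0.00057). Its r was again 0.85 without the 2 arrays farthest from the median, and the pair passed in all 20 calculations that left out 1 array. The 2 farthest arrays were chosen by 1 gene of a pair only, so they differ between pairs. That gene was the partner of Lyz2 or, in pairs without Lyz2, the gene named first. The points of Adgre1 and Lyz2 lay on both sides of a gap in Lyz2, a split made after the values were seen. The 14 livers below the gap, at Lyz2 deviations of -0.645 to 0.102, gave r = 0.66 (permutation p = 0.0076) and rho = 0.57 (permutation p = 0.036). The 6 livers above it, at 0.409 to 0.588, gave r = -0.31 (exact permutation p = 0.525) and rho = -0.54 (exact permutation p = 0.297). So few livers over so narrow a range of Lyz2 cannot decide whether the relation holds among them. On both sides of the gap the permutations ignored the groups. Lyz2 also went with Csf1r (r = 0.75, rho = 0.70, permutation p = 0.0015, adjusted p = 0.013, rho's p = 0.0031, r = 0.64 without the 2 farthest arrays). With Vsig4 its r was 0.74 (rho = 0.75, permutation p = 0.00099, adjusted p = 0.013, rho's p = 0.0008, r = 0.59 without the 2 farthest). With Timd4 r was also 0.74 (rho = 0.68, permutation p = 0.0011, adjusted p = 0.013, rho's p = 0.0042, r = 0.61 without the 2 farthest). With Marco it was 0.64 (rho = 0.63, permutation p = 0.0029, adjusted p = 0.021, rho's p = 0.0067, r = 0.59 without the 2 farthest), and 0.61 with an adjusted permutation p of 0.086 without animals 1 and 5 of the 18 °C group.

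Among the pairs that did not include Lyz2, Adgre1 and Csf1r had r = 0.69 (rho = 0.66, permutation p = 0.0047, adjusted p = 0.024, rho's p = 0.0072, r = 0.54 without the 2 farthest). Without animals 1 and 5 of the 18 °C group this r was 0.56 and its adjusted permutation p 0.118. For Vsig4 and Timd4 r was 0.66 (rho = 0.70, permutation p = 0.0046, adjusted p = 0.024, rho's p = 0.0019, r = 0.52 without the 2 farthest). For Vsig4 and Csf1r it was 0.62 (rho = 0.62, permutation p = 0.0075, adjusted p = 0.030, rho's p = 0.0080, r = 0.39 without the 2 farthest), a relation that rests in part on those 2 arrays. Clec4f and Csf1r had r = 0.58 (rho = 0.55, permutation p = 0.010, adjusted p = 0.037, rho's p = 0.026, r = 0.42 without the 2 farthest). For Marco and Timd4 r was 0.49 (rho = 0.58, permutation p = 0.0075, adjusted p = 0.030, rho's p = 0.0057, r = 0.48 without the 2 farthest). Cd163 against Lyz2 gave r = -0.13 (rho = 0.033, permutation p = 0.670, adjusted p = 0.709, rho's p = 0.90, r = 0.077 without the 2 farthest).

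The number of passing pairs depended on single animals. Without animal 5 of the 10 °C group 1 of 36 pairs passed, that of Adgre1 and Lyz2, without animal 1 of the 23 °C group 4 did, without animal 4 of the 30 °C group 5 and without animal 4 of the 10 °C group 6. Leaving out any other single array gave 8 to 13 pairs, and leaving out animals 1 and 5 of the 18 °C group together gave 8. With the background control rows removed as a covariate, 12 pairs passed.

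**Figure D3:**
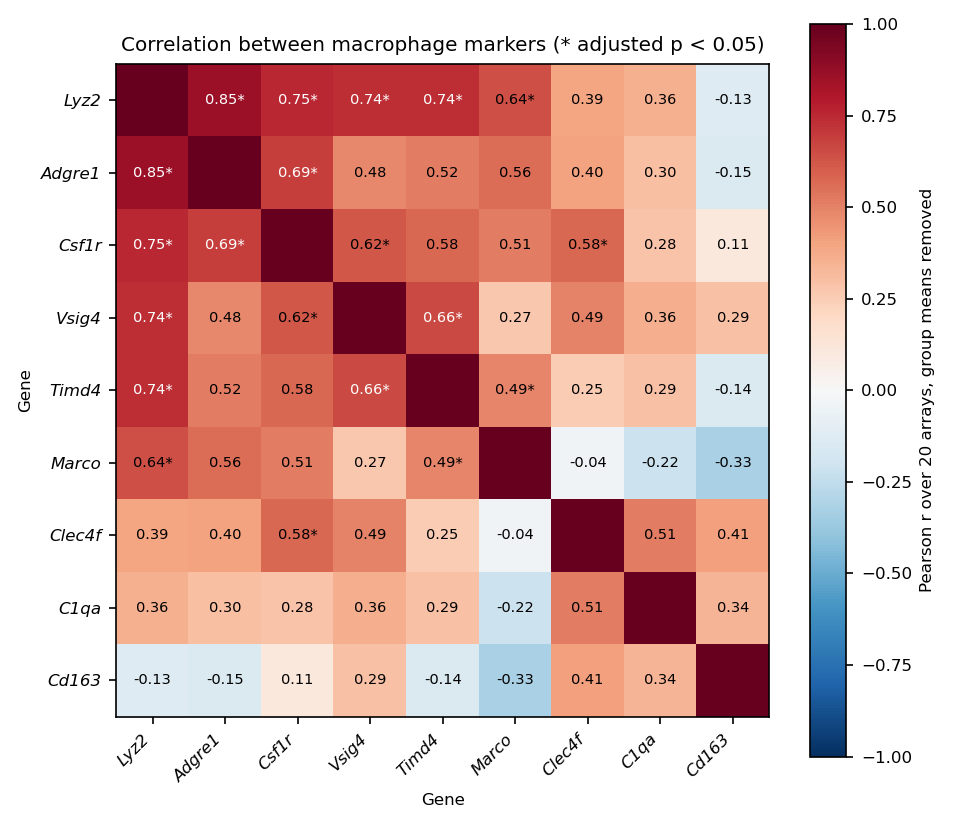
Pearson r between the 9 markers over 20 arrays after removal of group means, shown as colour and number, with both axes listing the genes and an asterisk where the permutation p adjusted over 36 pairs is under 0.05. Lyz2 has 5 of the 10 marked pairs, with r of 0.64 to 0.85, while Cd163 and C1qa have none.

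**Figure D4:**
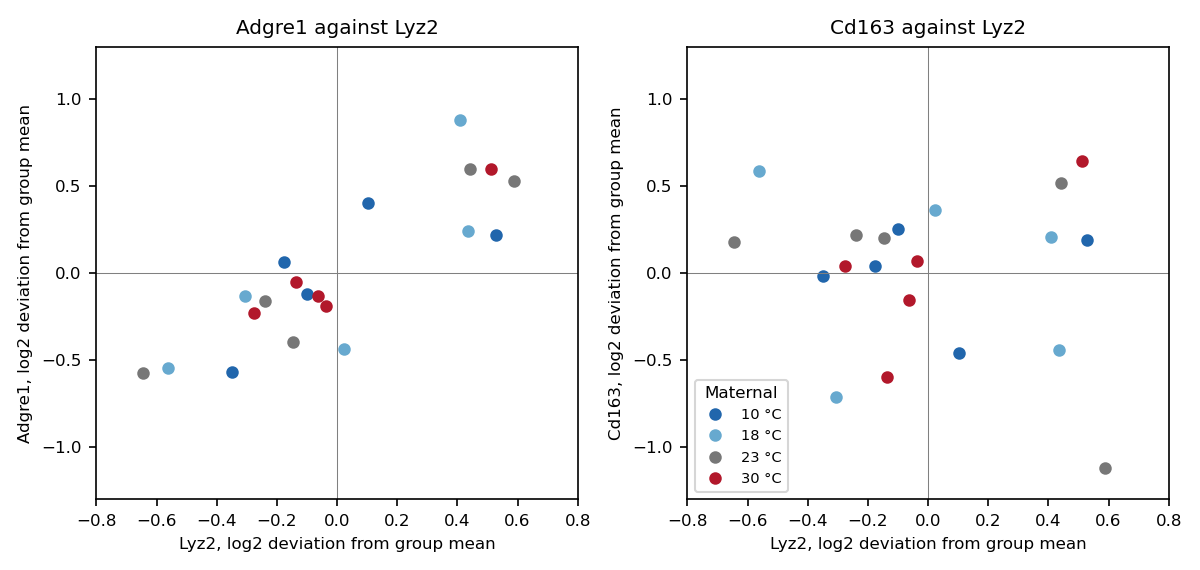
Deviation from the group mean, in log2 units, of Adgre1 (left) and Cd163 (right) on the vertical axes against that of Lyz2 on the horizontal axes, 1 point per liver, coloured by maternal temperature. Adgre1 rises with Lyz2 (r = 0.85), with 6 livers apart at the upper right, and Cd163 does not (r = -0.13).

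Promoter sequences are shown for Lyz2, Vsig4 and Timd4, of which every pair passed the correlation test, to let their starts be read side by side. Of the 9 markers 6 matched the RefSeq promoter table (GRCm38.p6), which spans 250 bases before and 50 after the start of a gene. PU.1, encoded by Spi1, is the transcription factor that directs the macrophage lineage, and it binds purine-rich sites with the core GGAA. The 6 letters GGAAGT were searched on both strands, a motif chosen with the expression results known. They were found in 23.8% of the 32851 promoters of the table, and in 4 of the 6 matched markers, Lyz2, Vsig4, Timd4 and Clec4f. The windows of Marco and Cd163 did not hold these 6 letters. Both windows do hold the shorter core GGAA, which was not counted over the promoters. Matches of the 6 letters are in capitals below, as ACTTCC where the motif lies on the opposite strand. Each sequence is written 5′ to 3′ on the strand of the gene. The Lyz2 window is chr10:117282223-117282522 on the minus strand, that of Vsig4 chrX:96293389-96293688 on the minus strand and that of Timd4 chr11:46810549-46810848 on the plus strand.
Lyz2: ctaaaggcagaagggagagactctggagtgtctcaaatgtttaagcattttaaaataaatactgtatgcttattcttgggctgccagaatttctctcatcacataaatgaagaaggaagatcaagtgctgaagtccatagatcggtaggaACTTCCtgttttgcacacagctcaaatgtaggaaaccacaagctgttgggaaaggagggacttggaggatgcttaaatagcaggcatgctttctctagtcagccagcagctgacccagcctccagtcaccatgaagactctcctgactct
Vsig4: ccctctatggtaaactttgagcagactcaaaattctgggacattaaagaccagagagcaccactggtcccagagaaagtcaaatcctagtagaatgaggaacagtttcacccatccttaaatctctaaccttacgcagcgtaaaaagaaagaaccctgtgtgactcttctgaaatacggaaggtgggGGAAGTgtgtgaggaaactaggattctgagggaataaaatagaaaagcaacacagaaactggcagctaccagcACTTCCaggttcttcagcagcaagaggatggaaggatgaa
Timd4: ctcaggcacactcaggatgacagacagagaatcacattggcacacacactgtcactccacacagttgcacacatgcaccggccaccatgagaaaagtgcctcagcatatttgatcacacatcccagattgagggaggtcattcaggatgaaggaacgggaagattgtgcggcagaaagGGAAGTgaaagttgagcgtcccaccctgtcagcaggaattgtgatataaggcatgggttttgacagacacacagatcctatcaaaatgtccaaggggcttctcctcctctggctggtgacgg
Counted from the start of the gene, the first base of the match lay at -100 in Lyz2, at -63 and 11 in Vsig4 and at -72 in Timd4. A match of 6 letters is a description of the window and does not show that a factor binds there.

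Beyond the markers, the 5 clusters whose deviations were most like those of a marker were taken from 11199 clusters with a symbol and a mean above the background level, by Pearson r over 20 arrays with group means removed. For Adgre1 they were Lyz2 at 0.85, Cd5l at 0.80, Cybb at 0.78, Slc7a8 at 0.78 and Treml4 at 0.76. Cd5l encodes a secreted scavenger protein of macrophages and Cybb the catalytic chain of the phagocyte NADPH oxidase. Those of Lyz2, which was added after its values were seen, were Adgre1 at 0.85, Ly86 at 0.85, Ctss at 0.84, Treml4 at 0.81 and Cd5l at 0.81. Ctss encodes cathepsin S, a protease of antigen-presenting cells. For Clec4f the 5 were Mfsd6 at 0.82, Fam234b at 0.77, Plekhg6 at 0.77, Jpt1 at 0.77 and Afg3l2 at 0.76, and for C1qa Ephb4 at 0.81, Fam160b1 at 0.81, Fbxw14 at 0.77, Zdhhc4 at 0.75 and Gm3448 at 0.74. Neither of these last 2 sets held a gene of the marker list, in which the closest to Clec4f was Csf1r, at rank 159, and the closest to C1qa was Clec4f, at rank 235.

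Further genes of Kupffer cells and macrophages were taken from lists by function. Of 17 other Kupffer cell genes, 15 with a mean above the background level, 0 passed in any comparison. Between 10 and 23 °C offspring 14 were higher and 3 lower (median 0.15), and between 18 and 23 °C 12 were higher and 5 lower (median 0.20), whereas between 30 and 23 °C 7 were higher and 10 lower (median -0.017). The mean deviation of these genes had the other order, -0.086 at 18 °C and -0.045 at 23 °C. Between these 2 groups Id3 differed by -2.06 and Id1 by -1.19. The genes lower at 10 than at 23 °C were C6, Id3 and Nr1h3. Those lower at 18 than at 23 °C were C6, Id1, Id3, Nr1h3 and Slc40a1. Genes of this list are not all used by Kupffer cells alone, and which cells gave their signal in whole liver was not tested. The 3 genes of this list with the smallest p over the 4 groups were Kcna2, Fabp7 and Cdh5. Fabp7, a fatty acid binding protein, averaged 7.87 ± 0.48 at 10 °C, 7.16 ± 0.31 at 18 °C, 6.96 ± 0.42 at 23 °C and 7.32 ± 0.68 at 30 °C, with a difference between 10 and 23 °C of 0.91 ± 0.28 (limma, adjusted p = 0.210). Kcna2, a potassium channel gene, had a mean of 3.84, under the background level, and differed by 0.44 ± 0.16 (limma, adjusted p = 0.291), and by 0.52 ± 0.16 between 18 and 23 °C (adjusted p = 0.344). Cdh5, the cadherin of endothelial junctions, which the list of endothelial markers also holds, differed by 0.18 ± 0.13 (limma, adjusted p = 0.604), and by 0.28 ± 0.13 between 18 and 23 °C (adjusted p = 0.503).

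Of 28 other macrophage genes, 25 above the background level, 0 passed. Between 10 and 23 °C 24 were higher and 4 lower (median 0.24), between 18 and 23 °C 19 and 9 (0.087) and between 30 and 23 °C 10 and 18 (-0.075). The 3 with the smallest p over the 4 groups did not share a pattern. Msr1, the type A scavenger receptor, averaged 7.14 ± 0.25, 7.51 ± 0.22, 7.5 ± 0.26 and 6.86 ± 0.39 with rising temperature (limma F-test over the 4 groups, adjusted p = 0.369). Axl, a receptor tyrosine kinase for the uptake of dying cells, averaged 7.32 ± 0.26, 6.64 ± 0.27, 6.91 ± 0.23 and 6.94 ± 0.28 (adjusted p = 0.369). Tyrobp, the signalling adaptor DAP12, averaged 5.38 ± 0.42, 5.08 ± 0.29, 4.86 ± 0.38 and 4.62 ± 0.37 (adjusted p = 0.401).

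Regulators of the lineage and its growth factors were evenly divided, with 10 of 19 measured genes higher and 9 lower between 10 and 23 °C (median 0.0089) and 0 passing. Spi1 averaged 9.26 ± 0.29, 9.22 ± 0.15, 9.08 ± 0.37 and 8.78 ± 0.27 with rising temperature, and the 10 °C mean differed from the control by 0.18 ± 0.18 (limma, adjusted p = 0.737). Il34, a ligand of Csf1r, was at 4.49 ± 0.54 at 10 °C and 5.09 ± 0.50 at 23 °C, a difference of -0.60 ± 0.26 (adjusted p = 0.377). Id3, a transcriptional regulator needed by Kupffer cells, averaged 8.69 ± 1.46, 7.21 ± 1.01, 9.27 ± 1.95 and 8.96 ± 1.77 with rising temperature, and the 18 °C mean differed from the control by -2.06 ± 0.85 (limma, adjusted p = 0.483). Of macrophage cytokines 6 of 12 were higher and 6 lower, with 0 passing, and Cxcl10, an interferon-induced chemokine, averaged 4.61 ± 0.38, 4.07 ± 0.27, 4.59 ± 0.40 and 4.22 ± 0.31 with rising temperature, with a difference of -0.53 ± 0.21 between 18 and 23 °C (limma, adjusted p = 0.470). Nos2, the inducible nitric oxide synthase, had a mean of 3.41, under the background level, and Il18, which is processed by the inflammasome, differed from the control by -0.053 ± 0.20 at 10 °C (limma, adjusted p = 0.944) and by 0.40 ± 0.20 at 18 °C (adjusted p = 0.562). Of 14 measured genes of monocytes and recruited macrophages 5 had a mean above the background level and 0 passed. The 3 with the smallest p, Chil3, Ccl3 and Ly6c2, had means of 3.21, 3.23 and 3.33, all under it.

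Markers of other liver cells moved with the same groups in part, and their part in the values above was not tested. Of 12 sinusoidal endothelial markers, all above the background level, 8 were higher and 4 lower between 10 and 23 °C (median 0.20) and 9 and 3 between 18 and 23 °C (median 0.15), with 0 passing. Their mean deviation per array ran from -0.070 to 0.24 at 10 °C, from -0.15 to 0.32 at 18 °C, from -0.28 to 0.071 at 23 °C and from -0.22 to 0.12 at 30 °C. Of 11 hepatocyte markers 2 were higher and 9 lower between 10 and 23 °C, with a median of -0.045. Of 10 T and NK cell markers 8 were higher and 2 lower between 10 and 23 °C, and 0 passed. The 3 with a mean above the background level differed by 0.70 (Cd3d), 0.019 (Cd2) and -0.35 (Cd4). Stellate cell markers, 11 measured and 10 above that level, had 8 higher and 3 lower in this comparison (median 0.062). For the lists of stellate cells, bile ducts, red cells, neutrophils, B cells, dendritic cells and all leukocytes, 0 genes passed in any comparison as well.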

How the data were processed

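The deposited series table holds log2 expression values, which the authors made with RMA (background correction, quantile normalisation and probe summary) in the Transcriptome Analysis Console, per the submitters' processing notes; versions and build are not given in the sources used here. RMA compresses differences of dim probe sets, and quantile normalisation hides a shift of all transcripts. Of 28846 rows, 6640 control rows were left out of the tests. A linear model with 1 mean per group ran on the 22206 transcript clusters of all 20 arrays (limma 3.58.1, R 4.3.3, moderated by eBayes), and the slope came from another model. Tests were two-sided, with Benjamini-Hochberg adjustment over all clusters and a threshold of 0.05. Correlations used 100000 permutations within groups (Python 3.11.15), except those on each side of the Lyz2 gap, which were permuted without regard to group. The fits were checked on simulated data.

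The markers and lists were chosen with earlier results of these data known, and genes are named by rule: all markers, 3 genes of each macrophage list with the smallest 4-group p, and the 5 clusters most like Adgre1, Clec4f and C1qa. For lists of other cell types mainly counts are given, with some genes named for their level. Other genes are named outside this rule, among them Id1, Lyz1, C1qb, C1qc, Arhgdib, Laptm5 and the clusters most like Lyz2 and Marco. The number of arrays limits the precision. Alternatives were another variance model, background rows as a covariate, a filter on dim clusters, repeated normalisation, array weights, an animal-number block, only the groups compared and leaving out arrays.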

Additional observations from a re-analysis of the deposited data

Results flagged for a closer look

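In each group of 5 arrays the highest and lowest value of every marker was set against the rest by Dixon's criterion, which compares the gap to the nearest array with the range of the group (critical value 0.71). It marked 3 of 36 groups, and chance marks about 1 in 20. Adgre1 in animal 4 of the 30 °C group was 6.93, against 6.11 to 6.29 in the other 4 mice. Vsig4 in animal 5 of the 10 °C group was 9.29, against 8.21 to 8.51. Cd163 in animal 17 of the 23 °C group was 5.16, against 6.46 to 6.80. The high Marco values of animals 1 and 5 of the 18 °C group were not marked, since a pair of high arrays leaves a small gap between them.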

How the results depend on the processing

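With 5 arrays per group, no marker passed in any alternative, and the smallest adjusted limma p was 0.181. Of 1242 recomputed values for 45 marker results, 1203 kept their side of the threshold without a change of sign, and 39 changed sign. The 1203 include all values of the test over the 4 groups, which has no direction and could not change sign. The cause of the changes of sign was not tested. With the background control rows as a covariate, Marco was 0.31 (10 against 23 °C) and 0.012 (30 against 23 °C), Clec4f -0.19 (18 against 23 °C), Timd4 -0.013 (30 against 23 °C) and the Cd163 slope 0.11. Timd4 between 18 and 23 °C was 0.011 after repeated quantile normalisation and 0.030 with array weights. Over all clusters, with group means removed, r of 11 same-numbered pairs of mice from different groups was -0.15 to 0.11 (median -0.00041). For 139 pairs with different numbers it was -0.17 to 0.33 (median 0.0023). Whether the numbers reflect litter or batch was not tested. With the number as a replicate block, Marco was 0.63 and C1qa -0.054 at 10 against 23 °C, Clec4f -0.23, Timd4 0.31 and C1qa -0.15 at 18 against 23 °C, and Vsig4 0.049, Marco 0.88 and Csf1r 0.25 at 30 against 23 °C. The numbers of control animals 15, 17 and 23 occur in no other group. Among the controls, the differences of that model therefore rest on animals 1 and 2 alone. Without animals 1 and 5 of the 18 °C group, an alternative chosen after seeing the data, Marco was -0.13 and Csf1r -0.099 at 18 against 23 °C and the Marco slope 0.047. Leaving out 1 array at a time, the values with a change of sign ran from -0.26 to 0.034 for Marco at 10 against 23 °C, at 18 against 23 °C from -0.036 to 0.18 for Clec4f and from -0.11 to 0.14 for Timd4, and at 30 against 23 °C from -0.25 to 0.080 for Clec4f, -0.21 to 0.047 for Vsig4, -0.19 to 0.10 for Marco, -0.11 to 0.15 for Timd4, -0.087 to 0.22 for Lyz2 and -0.26 to 0.041 for C1qa. The Marco slope ran from -0.15 to 0.0029. The number of all clusters passing between 10 and 23 °C, 2 as reported, was 0 with a variance trend and robust variance, with the covariate, with dim clusters left out, after repeated normalisation, with array weights, with the replicate block, with only the groups compared and without animals 1 and 5 of the 18 °C group. Where 0 passed as reported, 3 did for 18 against 23 °C and 3 for 18 against 30 °C both with the variance trend and with dim clusters left out. Over the 4 groups it was 2 with the trend, 1 with array weights and 1 with the replicate block, for 10 against 30 °C 1 each after repeated normalisation, with the replicate block and with only the groups compared, and for the slope 1 with the replicate block. Leaving out 1 array gave 0 to 22 (22 without animal 23 of the 23 °C group) for 10 against 23 °C, 0 to 3 for 18 against 23 °C, 0 to 2 for 10 against 30 °C, 0 to 3 for 18 against 30 °C, 0 to 1 for 10 against 18 °C and 0 to 7 over the 4 groups. The 10 passing pairs of markers became 1 to 13 without 1 array, 9 by Spearman's rho and 14 with group means kept. Signal limits Marco most, since it lay above the highest negative control mean in 11 of 20 arrays.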

Other observations

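The 3 chains of C1q are assembled into 1 protein, and their transcripts were compared within groups over 20 arrays after the values of C1qa had been seen. C1qa and C1qc had r = 0.59 (rho = 0.58, permutation p = 0.014, adjusted p = 0.041 over 3 pairs, rho's p = 0.019, r = 0.54 without the 2 farthest arrays). C1qb and C1qc had r = 0.53 (rho = 0.48, permutation p = 0.034, adjusted p = 0.052, rho's p = 0.052, r = 0.31 without the 2 farthest). C1qa and C1qb had r = 0.20 (rho = 0.098, permutation p = 0.458, adjusted p = 0.458, rho's p = 0.704, r = 0.018 without the 2 farthest). Between 10 and 23 °C offspring C1qb differed by 0.39 ± 0.24 (limma, adjusted p = 0.549) and C1qc by 0.12 ± 0.18 (adjusted p = 0.845).

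The 5 clusters most like Marco, taken after its 2 high arrays were seen, were Fam71f2 at r = 0.82, Hcls1 at 0.80, Mfge8 at 0.77, Cd9 at 0.76 and Siglece at 0.74, given as a description. Mfge8 encodes a bridging protein that helps phagocytes bind dying cells, and Hcls1 a cytoskeletal protein of blood cells.

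Of the genes near Adgre1 and Lyz2, Cybb differed between 10 and 23 °C offspring by 0.73 ± 0.23 (limma, adjusted p = 0.214), Ctss by 0.40 ± 0.18 (adjusted p = 0.392) and Cd5l by 0.50 ± 0.31 (adjusted p = 0.556). Of 6 pan-leukocyte markers 3 were higher and 3 lower in this comparison, with a median of 0.11, from -0.21 for Arhgdib to 0.29 for Laptm5.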
